A study of Mus musculus with 31 samples.

Results

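Cadherin superfamily RNA was measured in nerve tissue cut by laser microdissection from mouse embryos. The genes described are cadherins (types I and II and a few cadherins outside them) and the non-clustered protocadherins, 32 genes (22 cadherins and 10 protocadherins) chosen by symbol from 47729 in the count table, and all 32 were found by their Ensembl identifier. Every embryo carried the Sox10:H2BVenus transgene, a bacterial artificial chromosome in which Sox10 sequences drive a nuclear fluorescent protein, and the fluorescence guided the cutting. The glia of this pathway, olfactory ensheathing cells (OECs), arise from the neural crest and wrap the axons of olfactory sensory neurons along the olfactory nerve and in the olfactory nerve layer (ONL), the outermost layer of the olfactory bulb. The 7 groups were olfactory nerve at E11.5 (4 libraries), olfactory nerve (7) and ONL (5) at E13.5, and olfactory nerve (4), outer ONL (4), inner ONL (4) and trigeminal nerve, a Schwann cell-bearing nerve cut from branches near the olfactory system (3), at E16.5. Each library pooled tissue pieces from several sections, pieces also held adjacent tissue, and inner ONL pieces held olfactory bulb. By the study's account, cutting inner and outer ONL pieces did not separate the inner and outer OEC populations. Inner and outer ONL below therefore name the place of cutting only. The libraries came from 4 embryos a group, except 2 at E11.5 and 3 for trigeminal nerve, so in the groups of 4 libraries at E11.5 and of 7 and 5 at E13.5 some libraries share an embryo and the p-values over libraries there are too small. At E16.5 the study describes cutting the nerve regions from shared cryosections, so groups of that stage share embryos as well. Which libraries share an embryo is not stated, so all p-values measure the spread between libraries.

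Cadherins are transmembrane proteins that hold cells together through calcium-dependent binding of their extracellular repeats, mostly to the same cadherin on the next cell. Type I cadherins (E-, N-, P- and R-cadherin) and type II cadherins link through catenins to the actin cytoskeleton, and cells with different cadherins tend to sort apart. Protocadherins of the delta families bind more weakly, lack the catenin-binding tail and are known for roles in axon growth and neural circuit formation, and N-cadherin is known as an adhesion molecule of growing axons and Schwann cells. In bulk tissue, fewer cells of a type and less RNA per cell cannot be told apart.

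The library totals ran from 3512627 to 36705535 counts (13379107 to 16800784 in the 12 olfactory libraries of E16.5, 30221586 to 32508725 in trigeminal nerve). Levels are counts scaled to library size (CPM, with TMM factors), and levels of different genes are compared as CPM per kilobase of exon. At E16.5 the labels were used as given. For the 16 early libraries, the labels and the study's own table of group means disagreed: each library was placed by fitting the 7 mean columns of that table from the counts, and 21 of the 31 libraries fell under their label and 10 did not. By that table, E13.5 ONL holds the libraries labelled E11.5_ON1 to 4 and E13.5_ON1, E13.5 olfactory nerve those labelled E13.5_ON2 to 7 and E13.5_ONL1, and E11.5 olfactory nerve those labelled E13.5_ONL2 to 5. Which of the labels or the table is right was not tested. Early groups below are those of the table, the count by label stands beside each early comparison, and several early directions turn with the grouping. All 32 genes had more than 3 counts in at least 1 library, but Cdh16 did so in only 1 library and was left out by the filter, so 31 members were tested.

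**Figure D1:**
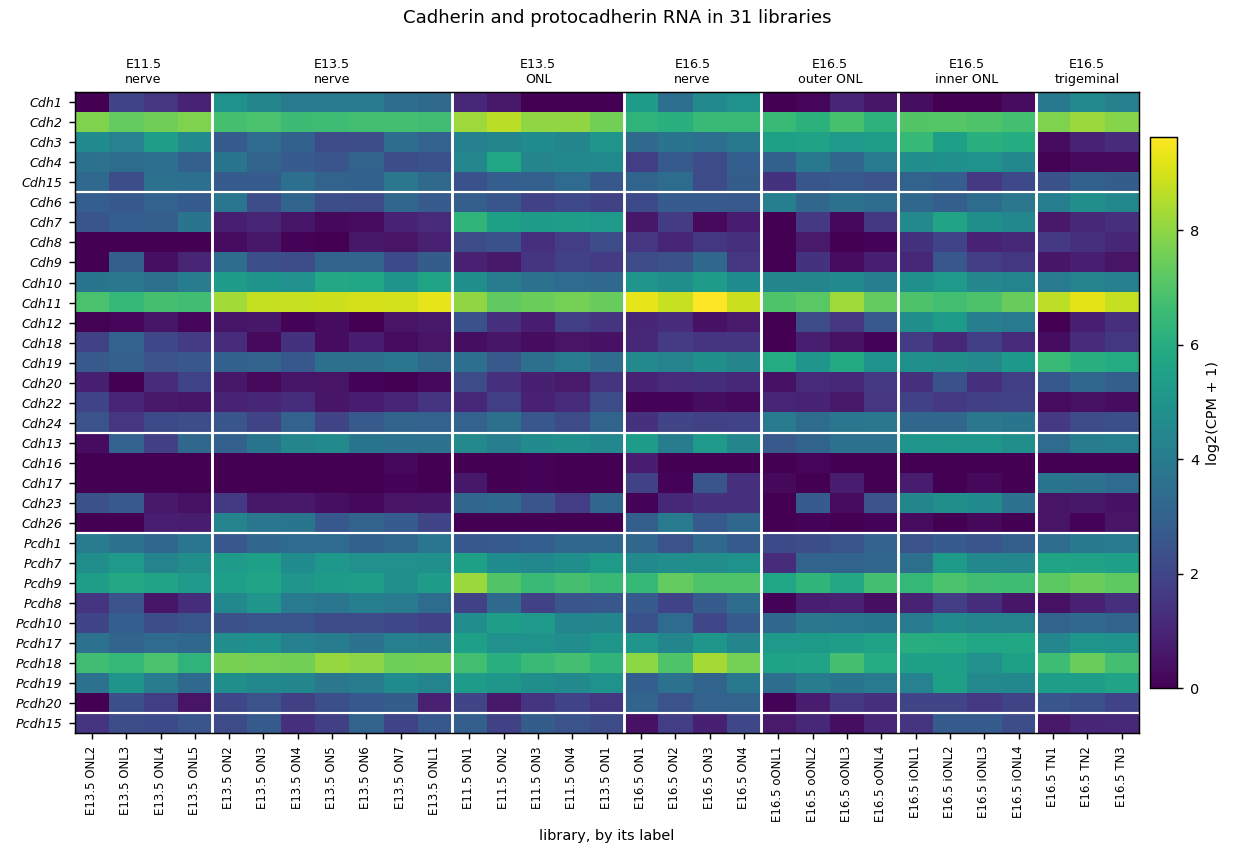
log2(CPM + 1) of the 32 genes (rows, in the order type I, type II, other cadherins, delta protocadherins, Pcdh15) in the 31 libraries (columns, named by label and arranged by group). Cdh11 and Pcdh18 are high in the olfactory nerve columns, Cdh3 in the ONL columns of E16.5, Cdh7 in E13.5 ONL and inner ONL, and Cdh16 is near 0 throughout.

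A few members held large shares of the family's RNA. Summed over the 32 genes, the level was 173 ± 33.8 CPM per kilobase (SD, n = 4) in olfactory nerve at E16.5, 93.1 ± 16.9 (n = 4) in outer ONL, 110.2 ± 5.18 (n = 4) in inner ONL and 179.9 ± 28.0 (n = 3) in trigeminal nerve. Cdh11, a type II cadherin known from mesenchyme and migrating neural crest, took 37.2% ± 3.22 (SD, n = 4) of that sum in olfactory nerve, 21.3% ± 5.11 (n = 4) in outer ONL, 13.2% ± 3.01 (n = 4) in inner ONL and 30.2% ± 1.997 (n = 3) in trigeminal nerve, and was the first-ranked member in each but inner ONL. There Cdh2 (N-cadherin, 14.0% ± 1.19), Pcdh9 (13.46% ± 1.73) and Cdh3 (P-cadherin, 13.4% ± 4.03) had mean shares above that of Cdh11, by less than the SD of Cdh3 or Cdh11. Cdh3 took 10.6% ± 2.62 in outer ONL, and Cdh19, a type II cadherin known as a marker of Schwann cell precursors, 11.3% ± 4.36 in outer ONL and 9.73% ± 3.07 in trigeminal nerve. Earlier, Cdh2 led at E11.5 (28.4% ± 4.14, n = 4) and in E13.5 ONL (26.4% ± 5.77, n = 5), while Cdh11 (35.9% ± 5.78, n = 7) and Pcdh18 (26.7% ± 3.49) led in E13.5 olfactory nerve.

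**Figure D2:**
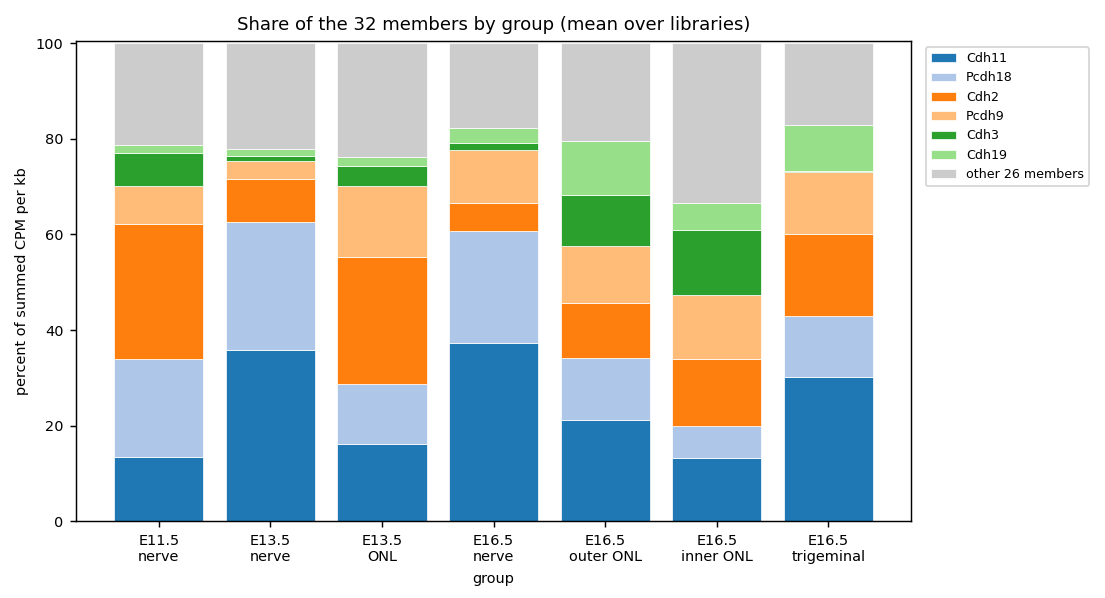
Share of each member in the summed CPM per kilobase of the 32 genes (vertical axis, percent, mean over the libraries of a group), for 7 groups. The 6 genes that reach at least 5% in any group are drawn by name and the other 26 together. Cdh11 and Pcdh18 fill more than the other members in the E13.5 and E16.5 olfactory nerve bars, and Cdh3 and Cdh19 hold more of the 2 ONL bars of E16.5 than of the olfactory nerve bar of that stage.

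The comparisons of E16.5 were made in 1 edgeR quasi-likelihood fit of 15 libraries and 17800 genes, where a call is a Benjamini-Hochberg adjusted p under 0.05. Outer ONL against olfactory nerve compares pieces cut at the target with pieces cut along the nerve, and not OECs alone. Of 31 members, 21 were called (7 higher and 14 lower in outer ONL), against 25.7% of all genes (10.3% higher, 15.4% lower), with a median log2 fold change of -0.66 (all genes -0.05). Inner against outer ONL compares pieces by place of cutting and not inner with outer OECs. It gave 11 calls, all higher in inner ONL, against 17.7% of all genes (10.1% higher, 7.54% lower), with a median of 1.04 (all genes -0.02). Outer ONL against trigeminal nerve compares pieces that held OECs with pieces that held Schwann cells, and not these cells alone. It gave 19 calls (4 higher and 15 lower in outer ONL), against 31.3% of all genes (15.1% higher, 16.2% lower), with a median of -0.88 (all genes -0.004). Olfactory against trigeminal nerve gave 14 calls (8 higher and 6 lower), against 26.9% of all genes (15.2% higher, 11.7% lower), with a median of 0.24 (all genes 0.03). These comparisons share groups, so their counts are not independent of each other. Trigeminal pieces also differed in content. Muscle markers (Myod1, Myog, Myf5 and Actc1) summed to 70.3 to 107.5 CPM there and to at most 3.56 CPM in the other E16.5 groups. The myelin markers Mbp and Prx summed to 1090 to 1519 CPM there and to 16.2 to 66.6 CPM in the others. Their part in the calls against trigeminal nerve, such as those of Cdh2, Cdh17, Cdh20, Pcdh1 and Pcdh19, was not tested.

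**Figure D3:**
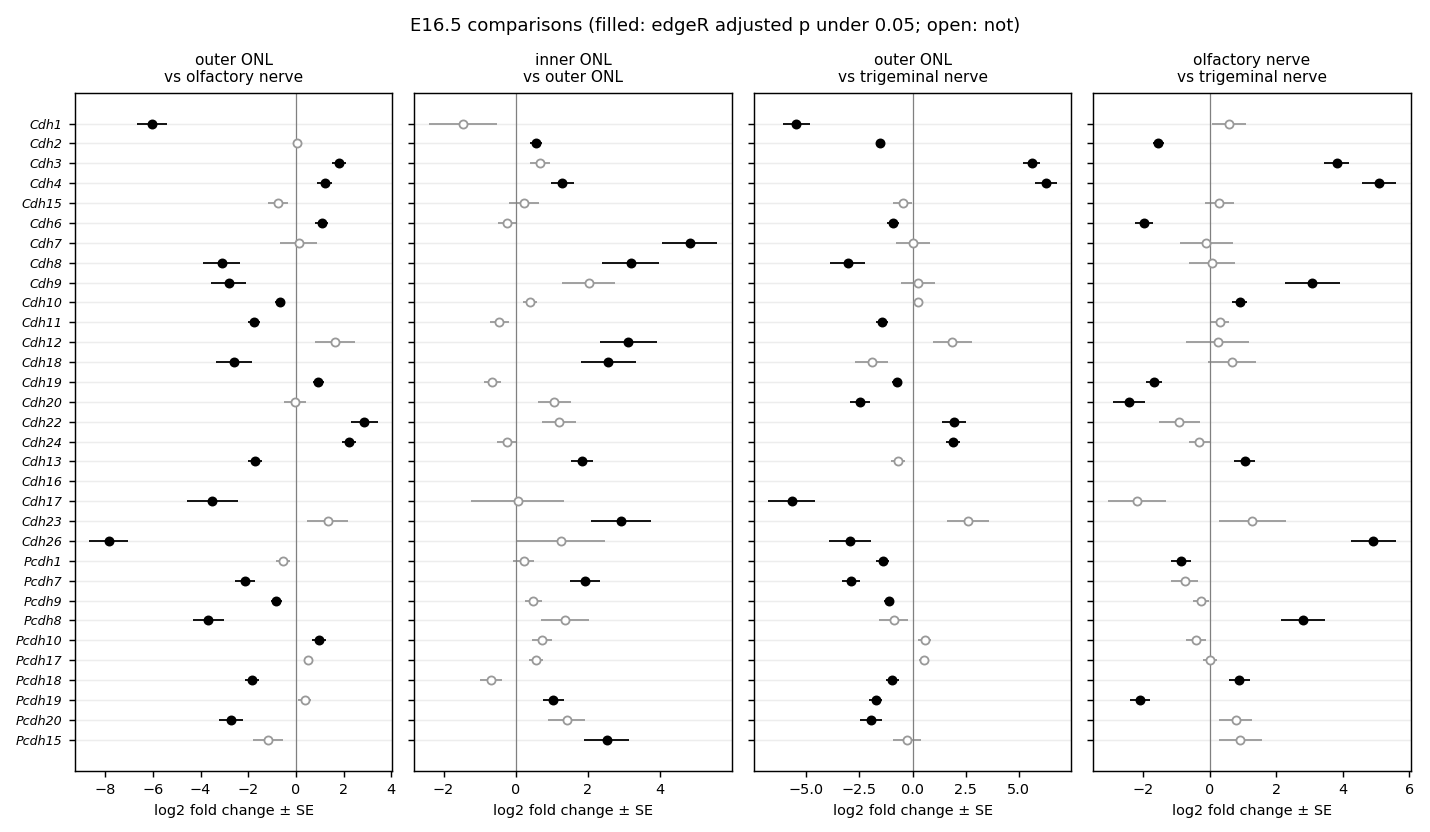
log2 fold change ± SE (horizontal axis) of the 31 tested members (rows) in 4 comparisons at E16.5, from the edgeR fit; filled points passed an adjusted p of 0.05 and open points did not. In the inner against outer ONL panel all 11 filled points lie to the right of 0, and in the outer ONL against olfactory nerve panel 14 of 21 lie to the left.

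Among the type I cadherins, Cdh1 (E-cadherin, the adhesion molecule of epithelia) was present in both nerves and nearly absent from the ONL. It read 38.9, 10.6, 23.6 and 29.4 CPM in olfactory nerve replicates 1 to 4, 0, 0.126, 0.996 and 0.488 CPM in the outer ONL, 0.269, 0, 0 and 0.241 CPM in the inner ONL and 13.95, 22.4 and 17.8 CPM in the trigeminal nerve. Every nerve library lay above every ONL library. Cdh1 was lower in outer ONL than in olfactory nerve (log2 fold change -6.04 ± 0.64 (SE), adjusted p = 2.75e-06) and than in trigeminal nerve (-5.47 ± 0.65, adjusted p = 5.01e-06), while the 2 nerves were not called different (0.57 ± 0.51, adjusted p = 0.452). Epithelial markers moved with it on the olfactory side only: the summed level of Epcam, Krt8, Krt18, Krt5 and Trp63 was 135.2 to 454.1 CPM in the olfactory nerve, 9.77 to 14.95 CPM in the outer ONL, 2.83 to 6.63 CPM in the inner ONL and 5.52 to 8.41 CPM in the trigeminal nerve. All 5 markers were called lower in outer ONL than in olfactory nerve and all 5 higher in olfactory than in trigeminal nerve. The part of epithelial cells in the Cdh1 values was not tested.

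Cdh3 (P-cadherin) was higher in the ONL than in either nerve, and lowest in trigeminal nerve. It read 8.79, 12.1, 10.6 and 13.7 CPM in the olfactory nerve, 43.7, 46.2, 36.2 and 41.3 CPM in the outer ONL, 86.8, 41.8, 68.8 and 60.8 CPM in the inner ONL and 0.252, 0.938 and 1.32 CPM in the trigeminal nerve. The outer ONL, olfactory nerve and trigeminal nerve groups did not overlap. It was 3.5-fold higher in outer ONL than in olfactory nerve (log2 fold change 1.81 ± 0.28 (SE), adjusted p = 1.45e-04), 49.2-fold higher in outer ONL than in trigeminal nerve (5.62 ± 0.40, adjusted p = 1.65e-08) and 14.1-fold higher in olfactory than in trigeminal nerve (3.81 ± 0.38, adjusted p = 1.23e-06). Inner and outer ONL overlapped and were not called different (0.66 ± 0.27, adjusted p = 0.116). Cdh3 (chr8:106510891-106557297, plus strand, GRCm38) and Cdh1 (chr8:106603351-106670246, plus strand) lie 46.1 kb apart, and the 2 neighbours differed in opposite directions between outer ONL and olfactory nerve. Cdh4 (R-cadherin, known from retina and brain) rose in steps from nerve to inner ONL. Its levels were 2.48, 5.63, 3.71 and 6.26 CPM in the olfactory nerve, 6.905, 13.9, 8.04 and 14.7 CPM in the outer ONL, 25.7, 27.8, 29.4 and 21.7 CPM in the inner ONL and 0.0361, 0.1804 and 0.184 CPM in the trigeminal nerve, with no overlap between any pair of neighbouring groups. Each step was called (outer ONL over olfactory nerve 1.201 ± 0.33, adjusted p = 0.0116, inner over outer ONL 1.29 ± 0.32, adjusted p = 0.00929, olfactory over trigeminal nerve 5.08 ± 0.51, adjusted p = 1.50e-06). The glial markers Sox10, Erbb3, Fabp7, S100b and Foxd3 summed to 14990 to 26970 CPM in the outer ONL and 16890 to 22090 CPM in the inner ONL, but to 1304 to 3184 CPM in the olfactory nerve and 668.3 to 734.1 CPM in the trigeminal nerve. Their members differed: between the nerves, Fabp7 was higher in olfactory nerve (4.33 ± 0.33, adjusted p = 7.52e-08), Sox10 (-1.35 ± 0.21, adjusted p = 1.14e-04) and Erbb3 (-1.21 ± 0.21, adjusted p = 3.26e-04) were lower, and S100b and Foxd3 were not called. Against trigeminal nerve, outer ONL was called higher for Fabp7 (7.82 ± 0.39, adjusted p = 6.25e-10) and Sox10 (0.93 ± 0.22, adjusted p = 0.00291). Erbb3 (0.06 ± 0.21, adjusted p = 0.851), S100b (0.56 ± 0.22, adjusted p = 0.0673) and Foxd3 (0.81 ± 0.37, adjusted p = 0.104) were not called there. The gap in the sum between these 2 groups therefore does not hold for each marker. In outer ONL, Cdh4 was higher in replicates 2 and 4 than in replicates 1 and 3. Bulb and forebrain neuron markers, listed below, did the same (10.3, 150.3, 42.4 and 88.9 CPM in replicates 1 to 4). They summed to 387.8 to 799.3 CPM in the inner ONL, and to 183.6 to 211.8 CPM in the trigeminal nerve, where Cdh4 was lowest. The part of either list in the Cdh3 and Cdh4 values was not tested.

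Cdh2 (N-cadherin) was higher in trigeminal nerve than in outer ONL or olfactory nerve. It read 75.7, 68.3, 87.9 and 91.8 CPM in the olfactory nerve, 89.7, 72.7, 114 and 73.01 CPM in the outer ONL, 133, 135, 124 and 106 CPM in the inner ONL and 217, 289.6 and 235 CPM in the trigeminal nerve. All 3 trigeminal libraries lay above all 12 olfactory ones, and Cdh2 was 2.88-fold lower in outer ONL (log2 fold change -1.53 ± 0.17 (SE), adjusted p = 2.21e-06) and 2.93-fold lower in olfactory nerve (-1.55 ± 0.17, adjusted p = 3.13e-06) than there. The muscle and myelin markers given above were also highest in trigeminal nerve, and their part in the Cdh2 values was not tested. Outer ONL and olfactory nerve were not called different (0.02 ± 0.16, adjusted p = 0.939). The higher level of inner over outer ONL (0.56 ± 0.16, adjusted p = 0.0189) was not called without library 1, 2 or 3 of inner ONL, or library 2 or 4 of outer ONL (0.49 to 0.53, adjusted p = 0.0535 to 0.0664). Cdh15 (M-cadherin, known from muscle and cerebellum) was low in every group, at 1.69 to 9.59 CPM over the 15 libraries, and passed in no comparison at E16.5.

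**Figure D4:**
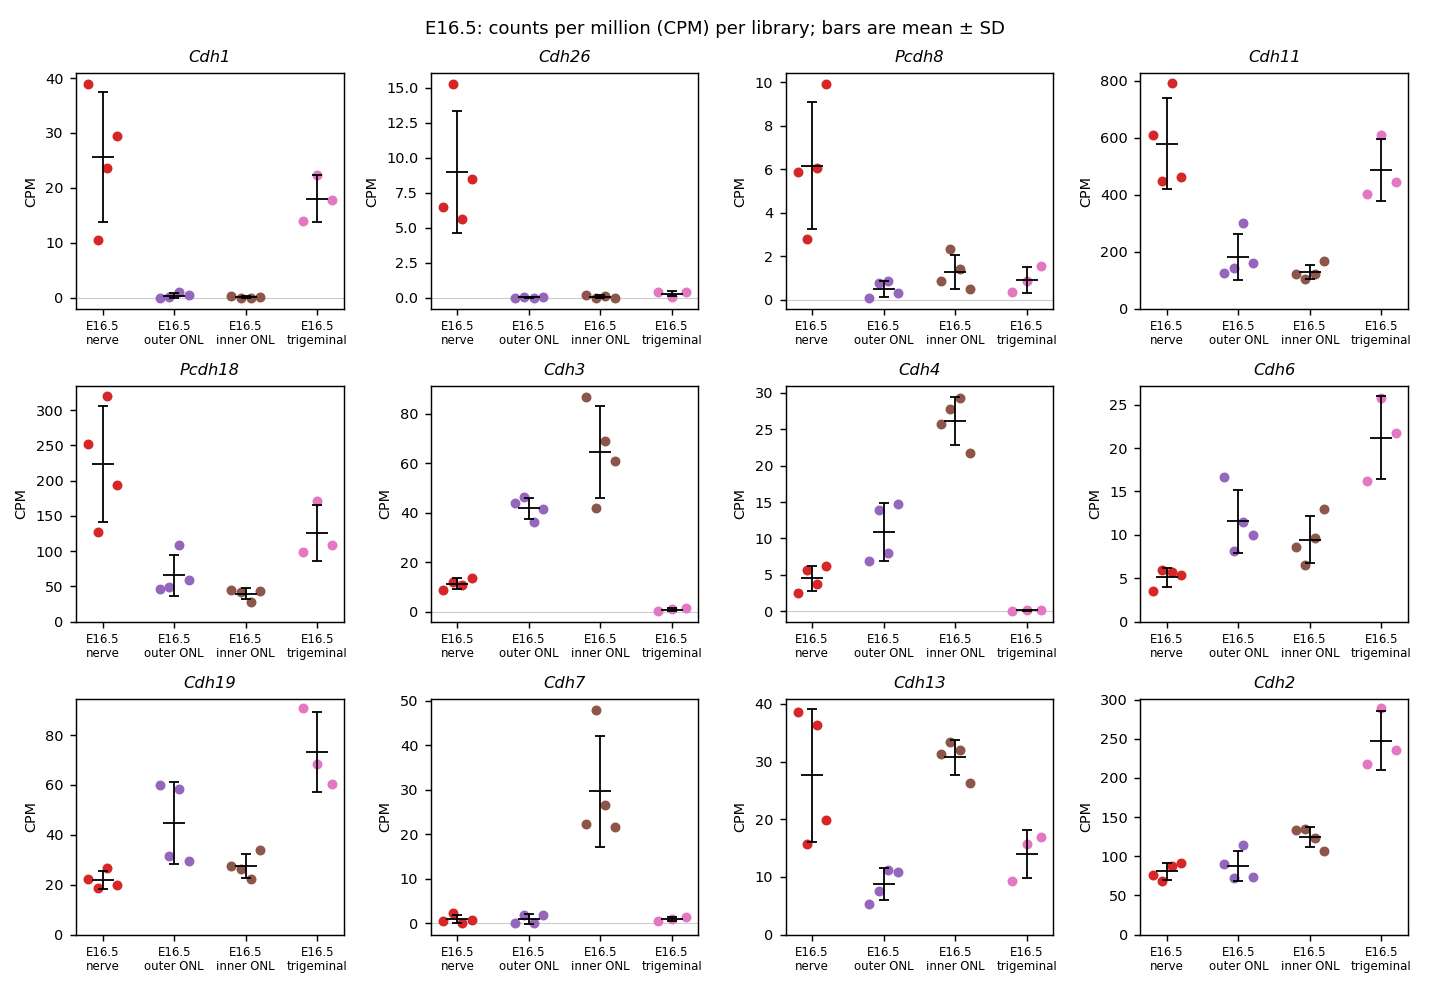
CPM (vertical axes, from 0, scaled for each gene) of 12 members in the 15 libraries of E16.5 (1 point a library; black bars, mean ± SD; n = 4, 4, 4 and 3 for olfactory nerve, outer ONL, inner ONL and trigeminal nerve). Cdh1 is near 0 in both ONL groups, Cdh3 and Cdh4 are near 0 in trigeminal nerve, and Cdh7 is high in inner ONL alone of the 4 groups.

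Type II cadherins split between those lower and those higher in outer ONL than in olfactory nerve. Cdh11 (OB-cadherin, chr8:102632095-102785642, minus strand, GRCm38) read 611, 450.0, 792 and 463 CPM in the olfactory nerve, 125, 142, 301 and 159.9 CPM in the outer ONL, 122, 105, 123 and 166 CPM in the inner ONL and 404, 609 and 445 CPM in the trigeminal nerve. Both nerves lay above both ONL groups in every library, and Cdh11 was 3.36-fold lower in outer ONL than in olfactory nerve (log2 fold change -1.75 ± 0.26 (SE), adjusted p = 8.23e-05) and 2.703-fold lower than in trigeminal nerve (-1.43 ± 0.27, adjusted p = 5.70e-04). The 2 nerves were not called different (0.31 ± 0.27, adjusted p = 0.438). Mesenchymal markers (Col1a1, Col1a2, Col3a1, Pdgfra, Lum and Prrx1) summed to 7812 to 14540 CPM in the olfactory nerve, 4533 to 9293 CPM in the outer ONL, 760.5 to 1771 CPM in the inner ONL and 22110 to 26450 CPM in the trigeminal nerve. Replicate 3 was the highest library of both olfactory nerve and outer ONL for Cdh11 and for these markers. Their part in the Cdh11 values was not tested.

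Cdh6, known from neural crest, and Cdh19, its relative in Schwann cell precursors, were both higher in outer ONL than in olfactory nerve. Cdh6 read 3.53, 5.94, 5.72 and 5.37 CPM in the olfactory nerve, 16.6, 8.103, 11.46 and 10.01 CPM in the outer ONL, 8.61, 6.54, 9.66 and 12.96 CPM in the inner ONL and 16.2, 25.8 and 21.7 CPM in the trigeminal nerve. Cdh19 read 22.3, 18.8, 26.6 and 19.9, then 59.99, 31.5, 58.2 and 29.5, 27.4, 26.3, 22.4 and 33.9 and 90.9, 68.5 and 60.2 CPM in the same order of groups. For both genes each outer ONL library exceeded each olfactory nerve library (log2 fold change 1.08 ± 0.27 (SE), adjusted p = 0.00604 for Cdh6 and 0.94 ± 0.23, adjusted p = 0.0049 for Cdh19), and each olfactory nerve library lay below each trigeminal library (Cdh6 -1.98 ± 0.28, adjusted p = 5.01e-05, Cdh19 -1.68 ± 0.24, adjusted p = 5.19e-05). Both were also called lower in outer ONL than in trigeminal nerve, Cdh6 with overlap (Cdh6 -0.90 ± 0.28, adjusted p = 0.0185, Cdh19 -0.74 ± 0.24, adjusted p = 0.0245). That call was lost for Cdh6 without library 2 or 4 of outer ONL, or library 2 or 3 of trigeminal nerve (-0.85 to -0.71, adjusted p = 0.0512 to 0.115), and for Cdh19 without library 2 or 4 of outer ONL, or library 1 or 2 of trigeminal nerve (-0.76 to -0.51, adjusted p = 0.0603 to 0.195). The neighbour of Cdh19 on chromosome 1 is Cdh7, with no coding gene in the 748.2 kb between them, and the levels of Cdh7 were unlike those of Cdh19: Cdh7 was at most 2.29 CPM in both olfactory nerve and outer ONL.

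Cdh24 and Cdh22, type II cadherins of less studied role, were likewise higher in outer ONL, and Cdh20 stood out in trigeminal nerve. Cdh24 read 1.61, 3.03, 2.73 and 2.82 CPM in the olfactory nerve, 14.6, 9.67, 12.7 and 13.7 CPM in the outer ONL, 8.14, 7.97, 13.1 and 12.4 CPM in the inner ONL and 2.06, 3.75 and 4.15 CPM in the trigeminal nerve. The ONL groups lay above both nerves without overlap (over olfactory nerve log2 fold change 2.22 ± 0.29 (SE), adjusted p = 2.37e-05, over trigeminal nerve 1.91 ± 0.32, adjusted p = 1.59e-04). Cdh22 was low, at 0.0619, 0.0619, 0.2601 and 0.166 CPM in the olfactory nerve, 0.997, 0.942, 0.569 and 1.89 CPM in the outer ONL, 2.69, 2.03, 2.51 and 2.71 CPM in the inner ONL and 0.216, 0.361 and 0.257 CPM in the trigeminal nerve, and was called higher in outer ONL than in both nerves (2.88 ± 0.56, adjusted p = 9.98e-04 over olfactory and 1.95 ± 0.55, adjusted p = 0.0109 over trigeminal nerve). The call over trigeminal nerve was lost in a fit of these groups alone with replicate number as a block (1.56, adjusted p = 0.194). Cdh20, known from the developing nervous system, read 0.928, 1.3, 1.37 and 1.11 CPM in the olfactory nerve, 0.384, 1.26, 1.14 and 2.01 CPM in the outer ONL, 1.55, 4.44, 1.49 and 2.47 CPM in the inner ONL and 5.3, 8.23 and 6.47 CPM in the trigeminal nerve. All 3 trigeminal libraries exceeded all 12 olfactory libraries, by 5.497-fold over outer ONL (-2.46 ± 0.47, adjusted p = 6.45e-04) and 5.41-fold over olfactory nerve (-2.44 ± 0.47, adjusted p = 8.38e-04).

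The remaining type II cadherins, Cdh7, Cdh8, Cdh9, Cdh10, Cdh12 and Cdh18, are best known from neurons. Cdh7 read 0.557, 2.29, 0.195 and 0.7199 CPM in the olfactory nerve, 0, 2.01, 0.142 and 1.95 CPM in the outer ONL, 22.4, 48.0, 26.5 and 21.7 CPM in the inner ONL and 0.577, 1.12 and 1.47 CPM in the trigeminal nerve. It was the member with the largest difference between inner and outer ONL among the 11 called (28.2-fold, log2 fold change 4.82 ± 0.76 (SE), adjusted p = 3.67e-04). Cdh12 read 0, 3.58, 1.85 and 5.49 CPM in outer and 26.8, 37.1, 16.2 and 14.8 CPM in the inner ONL, and Cdh23 0, 6.03, 0.213 and 4.52 and 20.4, 25.9, 24.1 and 11.1 CPM, both without overlap (Cdh12 3.11 ± 0.80, adjusted p = 0.0106, Cdh23 2.905 ± 0.83, adjusted p = 0.0203). In outer ONL these 3 genes were higher in replicates 2 and 4 than in replicates 1 and 3. Of the other members called higher in inner ONL, Cdh4, Cdh8, Pcdh15 and Pcdh19 were so too, and Cdh2, Cdh13, Cdh18 and Pcdh7 were not. Cdh9, Cdh20 and Pcdh9, not called there, were higher in replicates 2 and 4 as well. Markers of olfactory bulb and forebrain neurons (Tbr1, Eomes, Tbx21, Reln, Gad1 and Neurod6) did the same, summing to 10.3, 150.3, 42.4 and 88.9 CPM in outer ONL replicates 1 to 4, against 387.8 to 799.3 CPM in the inner ONL, where all 6 markers were called higher than in outer ONL. That sum was also 81.5 to 188.9 CPM in the olfactory nerve and 183.6 to 211.8 CPM in the trigeminal nerve. Neuron and axon markers (Gap43, Tubb3, Omp, Dcx and Stmn2) had the same outer ONL pattern, at 122.1, 883.3, 140.6 and 532.3 CPM. They summed to 1650 to 3495 CPM in the inner ONL, with 4 of 5 called higher there and Omp lower. The part of both lists was not tested. Inner ONL pieces were cut with bulb tissue, so the boundary layer and bulb tissue cannot be told apart there. The Cdh23 call was lost without library 2 of inner ONL (2.76, adjusted p = 0.0556).

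Cdh8, Cdh9, Cdh10 and Cdh18 were higher in olfactory nerve than in outer ONL. Cdh8 read 1.86, 0.9901, 1.95 and 1.44 CPM in the olfactory nerve, 0, 0.628, 0 and 0.06105 CPM in the outer ONL, 1.68, 2.86, 0.942 and 1.15 CPM in the inner ONL and 2.06, 1.52 and 1.07 CPM in the trigeminal nerve, so that outer ONL was the low group of the 4. It was called lower in outer ONL than in olfactory nerve (log2 fold change -3.13 ± 0.79 (SE), adjusted p = 0.00665), inner ONL (3.17 ± 0.79, adjusted p = 0.00895 for inner over outer) and trigeminal nerve (-3.06 ± 0.81, adjusted p = 0.00765, lost with the replicate block at -3.44, adjusted p = 0.0923). Cdh18 was also lowest in outer ONL by its mean, though trigeminal nerve overlapped it, at 0, 0.754, 0.356 and 0.06105 CPM in the outer ONL against 1.11, 2.29, 1.76 and 1.83 CPM in the olfactory nerve, 2.22, 1.13, 2.43 and 1.27 CPM in the inner ONL and 0.252, 1.26 and 1.95 CPM in the trigeminal nerve. Its difference between outer ONL and olfactory nerve (-2.59 ± 0.76, adjusted p = 0.0168) was not called without library 4 of outer ONL (-2.25, adjusted p = 0.0522), and that between inner and outer ONL (2.56 ± 0.76, adjusted p = 0.0256) was not called without library 1 or 3 of inner ONL, or library 1, 3 or 4 of outer ONL (2.16 to 2.64, adjusted p = 0.0516 to 0.0743). These 2 genes were sparse, with at most 57 counts in any library of E16.5. Cdh8 shares 23 exonic bases with an antisense gene and Cdh9 shares 224, and since the strand setting of the counting is not stated, reads there cannot be told apart.

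Cdh9 and Cdh10 set olfactory nerve apart from both outer ONL and trigeminal nerve. Cdh9 read 3.71, 4.21, 8.45 and 1.88 CPM in the olfactory nerve, 0, 1.63, 0.213 and 0.733 CPM in the outer ONL, 1.14, 5.19, 2.36 and 1.93 CPM in the inner ONL and 0.505, 0.758 and 0.404 CPM in the trigeminal nerve. It was lower in outer ONL (log2 fold change -2.83 ± 0.74 (SE), adjusted p = 0.00889), and higher in olfactory than in trigeminal nerve (3.08 ± 0.82, adjusted p = 0.00954). Cdh10 read 31.2, 26.7, 37.7 and 24.4 CPM in the olfactory nerve, 20.6, 19.98, 23.6 and 16.4 CPM in the outer ONL, 27.4, 35.2, 20.7 and 19.3 CPM in the inner ONL and 14.5, 18.9 and 17.2 CPM in the trigeminal nerve. No outer ONL or trigeminal library reached the lowest olfactory nerve library. Its differences were small, -0.66 ± 0.20, adjusted p = 0.0247 for outer ONL against olfactory nerve and 0.89 ± 0.22, adjusted p = 0.00641 for olfactory against trigeminal nerve. The first was not called without library 1 or 3 of olfactory nerve, or library 1 or 4 of outer ONL (-0.64 to -0.48, adjusted p = 0.0519 to 0.137). Cdh6, Cdh9, Cdh10, Cdh12 and Cdh18 lie next to each other on chromosome 15 with no coding gene between neighbours, and of the 5 only Cdh6 was called higher in outer ONL than in olfactory nerve, while Cdh12 was not called (1.64 ± 0.85, adjusted p = 0.179).

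Of the cadherins outside types I and II, Cdh26 (known from epithelia) and Cdh17 (liver-intestine cadherin) had their highest levels in the nerves. Cdh26 read 6.497, 15.3, 5.66 and 8.53 CPM in the olfactory nerve, 0, 0.0628, 0 and 0.06105 CPM in the outer ONL, 0.202, 0, 0.157 and 0 CPM in the inner ONL and 0.433, 0.0722 and 0.404 CPM in the trigeminal nerve. The outer ONL held 2 counts of it in all against 593 in olfactory nerve, a ratio of 268 scaled to depth (95% counting interval 73.8 to 2220), and the fitted log2 fold change was -7.86 ± 0.82, adjusted p = 2.31e-06. The same epithelial markers that moved with Cdh1 moved with Cdh26, though olfactory nerve replicate 2, the highest for Cdh26, was the lowest of the 4 for Cdh1 and for the summed epithelial markers. Cdh26 was higher in olfactory than in trigeminal nerve (4.92 ± 0.69, adjusted p = 4.20e-05). Outer ONL against trigeminal nerve, 2 counts against 25 (ratio 8.98, 95% counting interval 2.24 to 78.2), was called (-2.94 ± 0.99, adjusted p = 0.0306) but not without library 1 or 3 of outer ONL, or library 1 or 3 of trigeminal nerve (-2.67 to -2.57, adjusted p = 0.0685 to 0.1).

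Cdh17 read 2.72, 0.0619, 4.88 and 1.495 CPM in the olfactory nerve, 0.153, 0, 0.712 and 0 CPM in the outer ONL, 0.673, 0, 0.157 and 0 CPM in the inner ONL and 12.3, 11.1 and 9.26 CPM in the trigeminal nerve. Trigeminal nerve lay above all 12 olfactory libraries and above outer ONL by 51.9-fold (log2 fold change -5.697 ± 1.1 (SE), adjusted p = 6.78e-04). Olfactory nerve varied widely and overlapped outer ONL, and the call between these 2 groups (-3.504 ± 1.06, adjusted p = 0.0207) was lost without library 3 of olfactory nerve, or library 1, 2 or 4 of outer ONL (-3.35 to -2.78, adjusted p = 0.0507 to 0.0787), while olfactory against trigeminal nerve was not called (-2.19 ± 0.88, adjusted p = 0.0763). Cdh16, a kidney cadherin, had more than 3 counts in 1 library only, olfactory nerve replicate 1 at 0.681 CPM.

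Cdh13 (T-cadherin), which lacks a transmembrane domain and is anchored by a lipid, was lower in outer ONL than in olfactory nerve or inner ONL. It read 38.6, 15.7, 36.4 and 19.9 CPM in the olfactory nerve, 5.37, 7.54, 11.2 and 10.9 CPM in the outer ONL, 31.3, 33.3, 31.95 and 26.3 CPM in the inner ONL and 9.302, 15.7 and 16.9 CPM in the trigeminal nerve. Outer ONL lay below olfactory nerve (log2 fold change -1.73 ± 0.30 (SE), adjusted p = 4.02e-04) and below inner ONL (1.84 ± 0.30, adjusted p = 5.02e-04 for inner over outer) in every library. Cdh13 is also known from vessel walls. Mural cell markers (Pdgfrb, Rgs5, Acta2 and Kcnj8) summed to 655.9 to 2794 CPM in the olfactory nerve, with replicates 1 and 3 highest as for Cdh13, to 259.8 to 445.6 CPM in the outer ONL and to 152.5 to 212 CPM in the inner ONL, where Cdh13 was high. Their part was not tested. Olfactory against trigeminal nerve was called (1.04 ± 0.32, adjusted p = 0.0229), but not without library 1 or 3 of olfactory nerve, or library 1 of trigeminal nerve (0.80 to 0.85, adjusted p = 0.0714 to 0.119).

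Cdh23 and Pcdh15, which together form the tip link that gates mechanotransduction in hair cells, were both higher in inner than in outer ONL. Pcdh15 read 0.371, 2.35, 0.7801 and 3.16 CPM in the olfactory nerve, 0.614, 1.13, 0.285 and 1.04 CPM in the outer ONL, 1.82, 5.94, 5.97 and 3.797 CPM in the inner ONL and 0.577, 1.05 and 1.18 CPM in the trigeminal nerve, and only the 2 ONL groups were called different at E16.5 (log2 fold change 2.52 ± 0.62 (SE), adjusted p = 0.00852). Cdh23 in olfactory nerve (0.0619, 1.11, 1.56 and 1.44 CPM) and trigeminal nerve (0.433, 0.541 and 0.368 CPM) was under the level of every inner ONL library. Of the 7 tested genes of the tip link machinery, 2 were called higher in inner than in outer ONL, against 10.1% of all genes called higher. They were the channel subunit Lhfpl5 (3.03 ± 0.63, adjusted p = 0.00338) and Cib2 (0.83 ± 0.19, adjusted p = 0.0063). Inner ONL pieces held bulb tissue, and its part in these values was not tested.

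Per kilobase of exon, Pcdh18 and Pcdh9 had the highest mean levels of the delta protocadherins in each of the 7 groups. Pcdh18 was above Pcdh9 in olfactory nerve at E16.5 (41.6 ± 15.3 against 18.3 ± 4.25 CPM per kilobase, mean ± SD, n = 4) and below it in inner ONL (7.38 ± 1.45 against 14.8 ± 2.11, n = 4). The means lay within 1 SD of each other in trigeminal nerve (23.5 ± 7.41 against 23.2 ± 2.08, n = 3) and outer ONL (12.3 ± 5.42 against 10.8 ± 3.85, n = 4). In E13.5 ONL Pcdh9 had the higher mean (16.4 ± 3.25 against 20.8 ± 12.2, n = 5). That Pcdh9 mean includes the library labelled E11.5_ON1 at 286.9 CPM, with the others at 89.8 to 127.7 CPM. Pcdh18 read 253, 127, 319.5 and 194 CPM in the olfactory nerve, 46.8, 48.7, 109 and 59.3 CPM in the outer ONL, 44.99, 41.8, 28.1 and 43.6 CPM in the inner ONL and 98.7, 172 and 108 CPM in the trigeminal nerve. Outer ONL lay below olfactory nerve in every library (log2 fold change -1.84 ± 0.30 (SE), adjusted p = 2.00e-04), with replicate 3 the highest of each of these 2 groups, as for Cdh11 and the mesenchymal markers. The call below trigeminal nerve (-0.96 ± 0.31, adjusted p = 0.026) was lost without library 1, 2 or 4 of outer ONL, or library 2 of trigeminal nerve (-0.92 to -0.66, adjusted p = 0.0617 to 0.168), and the call of olfactory over trigeminal nerve (0.88 ± 0.32, adjusted p = 0.049) was lost without library 1, 3 or 4 of olfactory nerve, or library 1 or 3 of trigeminal nerve (0.63 to 0.91, adjusted p = 0.0688 to 0.193).

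Pcdh7, Pcdh8 and Pcdh20 were lower in outer ONL than in olfactory nerve in every library. Pcdh7, of the delta-1 group, read 22.5, 25.4, 26.3 and 28.8 CPM in the olfactory nerve, 1.304, 7.35, 7.61 and 8.12 CPM in the outer ONL, 10.6, 37.3, 21.4 and 21.1 CPM in the inner ONL and 48.1, 46.2 and 42.5 CPM in the trigeminal nerve. Outer ONL was the low group of the 4, under olfactory nerve (log2 fold change -2.14 ± 0.41 (SE), adjusted p = 8.86e-04), inner ONL (1.91 ± 0.41, adjusted p = 0.00328 for inner over outer) and trigeminal nerve (-2.898 ± 0.43, adjusted p = 6.03e-05). Pcdh8, a delta-2 member known from dendritic spines and paraxial mesoderm, read 5.88, 2.78, 6.05 and 9.91 CPM in the olfactory nerve, 0.0767, 0.754, 0.854 and 0.305 CPM in the outer ONL, 0.874, 2.33, 1.41 and 0.482 CPM in the inner ONL and 0.361, 0.866 and 1.54 CPM in the trigeminal nerve. It was 12.8-fold lower in outer ONL (-3.68 ± 0.65, adjusted p = 4.38e-04) and higher in olfactory than in trigeminal nerve (2.8 ± 0.67, adjusted p = 0.00459). Pcdh20 read 7.92, 4.52, 7.09 and 7.37 CPM in the olfactory nerve, 0.0767, 0.691, 1.99 and 1.47 CPM in the outer ONL, 3.03, 3.01, 2.04 and 2.95 CPM in the inner ONL and 5.01, 4.44 and 2.83 CPM in the trigeminal nerve, and was called lower in outer ONL than in olfactory nerve (-2.73 ± 0.51, adjusted p = 6.96e-04) and trigeminal nerve (-1.95 ± 0.52, adjusted p = 0.00851, lost with the replicate block at -2.53, adjusted p = 0.0987). Other genes share 2235 exonic bases with Pcdh7 and 436 with Pcdh8, with smaller overlaps for Cdh12 (198), Pcdh10 (154) and Pcdh19 (57), and reads there cannot be told apart.

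Pcdh9, of the delta-1 group, was abundant in all 4 groups. It read 87.6, 158, 125 and 127 CPM in the olfactory nerve, 51.1, 78.8, 55.7 and 108 CPM in the outer ONL, 84.1, 119, 102 and 97.6 CPM in the inner ONL and 148, 174 and 150.1 CPM in the trigeminal nerve, and was called lower in outer ONL than in olfactory nerve (log2 fold change -0.83 ± 0.23 (SE), adjusted p = 0.0113), with overlap, and than in trigeminal nerve, without (-1.11 ± 0.24, adjusted p = 0.00183). Pcdh10 (OL-protocadherin, known from olfactory and striatal axon pathways) read 4.39, 9.34, 3.19 and 5.98 CPM in the olfactory nerve, 8.44, 13.51, 12.9 and 12.3 CPM in the outer ONL, 14.4, 22.9, 19.2 and 18.9 CPM in the inner ONL and 7.36, 8.84 and 7.54 CPM in the trigeminal nerve. Outer ONL was called higher than olfactory nerve (0.97 ± 0.28, adjusted p = 0.0175), with overlap, and not without library 1 of olfactory nerve (0.85, adjusted p = 0.0587). Pcdh17, a delta-2 member known from synapses and axon extension, read 31.4, 20.4, 33.7 and 19.6 CPM in the olfactory nerve, 35.98, 37.2, 39.9 and 46.2 CPM in the outer ONL, 63.7, 61.5, 51.3 and 52.3 CPM in the inner ONL and 20.8, 32.1 and 28.8 CPM in the trigeminal nerve, and passed in no comparison at E16.5.

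Pcdh19 and Pcdh1 were higher in trigeminal nerve than in outer ONL or olfactory nerve. Pcdh19, which binds N-cadherin at the cell surface, read 6.37, 11.3, 7.67 and 13.8 CPM in the olfactory nerve, 10.3, 16.02, 12.4 and 14.3 CPM in the outer ONL, 18.4, 43.8, 22.2 and 21.7 CPM in the inner ONL and 41.3, 41.6 and 48.9 CPM in the trigeminal nerve. Like Cdh2, it was lower in both outer ONL (log2 fold change -1.74 ± 0.30 (SE), adjusted p = 2.73e-04) and olfactory nerve (-2.1 ± 0.31, adjusted p = 6.18e-05) than in trigeminal nerve. Its higher level in inner over outer ONL (1.04 ± 0.29, adjusted p = 0.0171) was not called without library 2 of inner ONL, or library 1 of outer ONL (0.68 to 0.91, adjusted p = 0.0526 to 0.0919). Pcdh1 read 8.11, 4.46, 8.71 and 5.59 CPM in the olfactory nerve, 3.45, 4.02, 4.62 and 7.14 CPM in the outer ONL, 4.57, 5.94, 4.87 and 6.45 CPM in the inner ONL and 9.63, 14.03 and 14.4 CPM in the trigeminal nerve. It was lower in outer ONL than in trigeminal nerve (-1.405 ± 0.30, adjusted p = 0.00173), and the call for olfactory against trigeminal nerve (-0.86 ± 0.30, adjusted p = 0.0433) was lost without library 2 or 4 of olfactory nerve, or library 2 or 3 of trigeminal nerve (-0.82 to -0.70, adjusted p = 0.0855 to 0.112).

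The windows before the start sites of 4 members that differed between outer ONL and olfactory nerve are shown. They were picked because they hold the letters ACAAAG, which factors of the SOX family are known to bind. RefSeq windows (GRCm38.p6) were at hand for 22 of the 32 members, 25 windows in all. The 250 bases before the start were searched for ACAAAG on both strands (ACAAAG or CTTTGT), which 5408 of all 32851 windows held. Of the 25 member windows, 5 held it (20.0%, near the share of all windows), those of Cdh6, Cdh26, Pcdh8 and Pcdh18 and the window of 1 of the 3 starts of Cdh7. A match is a description of the letters and not of a binding site. Capitals mark the match, which begins 52 bases before the start in Cdh6 (chr15:13173676-13173925, minus strand), 86 in Cdh26 (chr2:178430265-178430514, plus strand), 177 in Pcdh8 (chr14:79771313-79771562, minus strand) and 225 in Pcdh18 (chr3:49757317-49757566, minus strand), each printed 5′ to 3′ on the strand of the gene.
Cdh6: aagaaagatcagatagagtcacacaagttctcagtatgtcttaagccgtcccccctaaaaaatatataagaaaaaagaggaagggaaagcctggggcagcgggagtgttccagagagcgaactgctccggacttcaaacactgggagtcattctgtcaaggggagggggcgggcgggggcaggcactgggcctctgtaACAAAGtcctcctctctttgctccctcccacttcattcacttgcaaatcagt
Cdh26: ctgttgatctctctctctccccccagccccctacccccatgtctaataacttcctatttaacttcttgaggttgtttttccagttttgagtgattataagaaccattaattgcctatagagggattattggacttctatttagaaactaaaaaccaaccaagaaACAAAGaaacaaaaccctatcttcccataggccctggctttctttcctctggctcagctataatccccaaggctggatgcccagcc
Pcdh8: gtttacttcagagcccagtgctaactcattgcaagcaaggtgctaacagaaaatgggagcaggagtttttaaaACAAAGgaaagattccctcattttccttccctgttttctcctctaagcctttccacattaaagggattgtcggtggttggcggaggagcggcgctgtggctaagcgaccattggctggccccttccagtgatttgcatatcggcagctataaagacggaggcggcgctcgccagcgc
Pcdh18: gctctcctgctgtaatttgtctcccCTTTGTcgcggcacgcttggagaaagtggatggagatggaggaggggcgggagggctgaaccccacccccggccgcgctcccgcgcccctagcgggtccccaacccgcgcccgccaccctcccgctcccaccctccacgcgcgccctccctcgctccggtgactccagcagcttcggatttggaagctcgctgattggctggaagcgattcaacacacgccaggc

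Of these 4, Cdh6 was higher in outer ONL than in olfactory nerve and the other 3 were lower, so the shared letters went with differences of both signs.

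The catenins link cadherins to actin. Of 10 catenins and catenin partners, 1 was higher in outer ONL than in olfactory nerve, the neural delta-catenin Ctnnd2 (0.97 ± 0.31, adjusted p = 0.0269), and 1 lower, the junctional plakoglobin Jup (-0.93 ± 0.26, adjusted p = 0.013), a count near the 25.7% of all genes called. Their summed level ran from 1129 to 1970 CPM over the 15 libraries of E16.5 with overlap between all groups. Of 8 transcriptional and splicing regulators of cadherins, 2 were higher and 5 lower in outer ONL. Lower were Snai1 (-1.02 ± 0.33, adjusted p = 0.0294), Snai2 (-1.79 ± 0.26, adjusted p = 5.63e-05), Twist1 (-2.09 ± 0.44, adjusted p = 0.00192) and the epithelial regulators Esrp1 (-5.96 ± 0.65, adjusted p = 3.36e-06) and Grhl2 (-3.96 ± 0.88, adjusted p = 0.00282). Higher were Zeb1 (0.72 ± 0.13, adjusted p = 6.29e-04) and Foxd3 (1.33 ± 0.34, adjusted p = 0.00813). Of 20 other superfamily genes, 2 were higher, the large cadherins Fat1 (0.96 ± 0.14, adjusted p = 6.85e-05) and Fat3 (3.03 ± 0.35, adjusted p = 7.11e-06), and 7 lower. These last included the desmosomal Dsg2 (-3.89 ± 1.004, adjusted p = 0.0079), Dsc2 (-3.48 ± 0.90, adjusted p = 0.00818) and Dsp (-3.85 ± 0.81, adjusted p = 0.00187), which were lower along with the epithelial markers.

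At E13.5, the comparison of ONL with olfactory nerve asks whether the same difference stood 3 days earlier. In a fit of all 31 libraries and 19332 genes, 17 members were called (11 higher and 6 lower in ONL), against 31.5% of all genes (15.4% higher, 16.1% lower), with a median log2 fold change of 0.32 (all genes -0.03). By label 9 were called (4 higher and 5 lower), against 17.7% of all genes (8.88% higher, 8.81% lower). Libraries of the early groups share embryos, so the p-values of this and the following comparisons are too small. Cdh7 read 77.8, 43.1, 37.5, 39.9 and 35.9 CPM in E13.5 ONL and between 0.162 and 1.24 (median 0.7596) CPM in E13.5 olfactory nerve, 69.9-fold higher in ONL (log2 fold change 6.13 ± 0.56 (SE), adjusted p = 5.76e-10). Pcdh10 read 25.7, 40.7, 35.7, 19.4 and 20.2 against between 2.74 and 4.85 (median 3.703) CPM (2.88 ± 0.24, adjusted p = 1.25e-10), Cdh2 296, 399, 258, 263 and 191 against between 96.1 and 116 (median 104) CPM (1.42 ± 0.14, adjusted p = 1.72e-09) and Pcdh9 287, 128, 89.8, 109.8 and 92.0 against between 27.5 and 48.2 (median 39.2) CPM (1.88 ± 0.23, adjusted p = 8.68e-08). For each of these 4 genes every ONL library exceeded every nerve library. Cdh3 (17.98, 19.7, 24.5, 20.5 and 31.1 against between 3.57 and 9.79 (median 6.88) CPM, 1.79 ± 0.26, adjusted p = 2.46e-06) and Cdh4 (21.03, 50.9, 20.03, 21.6 and 22.7 against between 3.92 and 12.4 (median 5.804) CPM, 2.05 ± 0.29, adjusted p = 1.59e-06) were also higher in ONL without overlap, as they were in outer ONL at E16.5. By label, the log2 fold changes were 0.10 for Cdh7, -0.63 for Pcdh10, -0.05 for Pcdh9 and -0.13 for Cdh4, not called, and 0.58 for Cdh2 and 1.13 for Cdh3, called.

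Lower in E13.5 ONL were members that were lower in outer ONL at E16.5 as well. Cdh26 had 0 counts in the 5 ONL libraries and 880 in the 7 nerve libraries (between 3.07 and 18.8 (median 7.405) CPM), at least 227-fold lower in ONL with a floor of 3 counts over the group. Cdh1 read 1.11, 0.576, 0, 0 and 0 CPM in ONL and between 8.95 and 28.7 (median 14.1) CPM in nerve (log2 fold change -6.28 ± 0.92 (SE), adjusted p = 2.56e-06). The epithelial markers summed to 3.38 to 11.6 CPM in E13.5 ONL and 216.8 to 436.6 CPM in E13.5 nerve, with 3 of 5 called lower in ONL, and their part was not tested. Cdh11 (259, 154, 177, 197 and 166 against between 317 and 611 (median 473) CPM, -1.31 ± 0.20, adjusted p = 4.65e-06), Pcdh18 (104, 64.7, 88.4, 106 and 77.5 against between 181 and 273 (median 197) CPM, -1.26 ± 0.22, adjusted p = 2.93e-05), Cdh10 (-1.53 ± 0.24, adjusted p = 6.99e-06) and Pcdh8 (-1.82 ± 0.48, adjusted p = 0.00369) were the other 4. The other members higher in ONL were Cdh8 (3.09 ± 0.64, adjusted p = 3.96e-04), Cdh23 (3.23 ± 0.76, adjusted p = 0.00119), Cdh12 (2.66 ± 0.78, adjusted p = 0.00845), Cdh20 (2.52 ± 0.70, adjusted p = 0.00547) and Pcdh17 (0.74 ± 0.18, adjusted p = 0.00228, with overlap). By label Pcdh17 was called in the opposite direction (-1.01 ± 0.23, adjusted p = 0.004), Cdh8 (-2.81) and Cdh12 (-1.13) turned direction and were not called, and Cdh1 (-2.34), Cdh10 (-0.79), Cdh11 (-1.002), Cdh20 (0.97) and Cdh23 (0.31) kept direction and were not called. Bulb and forebrain neuron markers summed to 792.8 to 1099 CPM in E13.5 ONL and 39.9 to 67.1 CPM in E13.5 nerve, with all 6 called higher in ONL, and glial markers to 4065 to 6270 and 424.1 to 932.1 CPM, with 4 of 5 higher and 1 lower. Neuron and axon markers (Gap43, Tubb3, Omp, Dcx and Stmn2) summed to 3025 to 4955 CPM in ONL and 780.8 to 1489 CPM in nerve (4 higher and 1 lower), and mesenchymal markers to 1780 to 3641 and 3500 to 6356 CPM (1 higher and 4 lower of 6). The part of these lists in the calls was not tested. No call of this comparison was lost when any 1 library was left out.

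**Figure D5:**
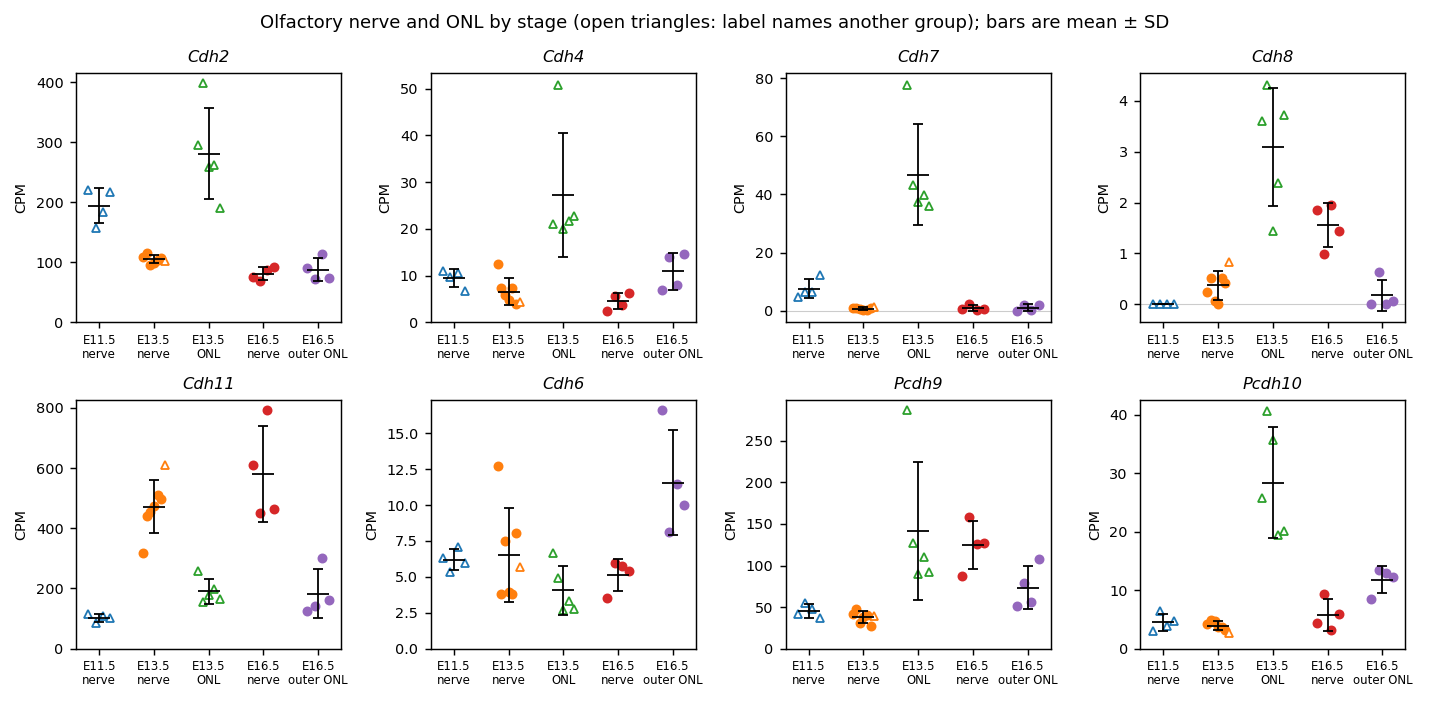
CPM (vertical axes, from 0, scaled for each gene) of 8 members in olfactory nerve at E11.5 (n = 4), E13.5 (n = 7) and E16.5 (n = 4), E13.5 ONL (n = 5) and outer ONL at E16.5 (n = 4), grouped by the study's table of means; open triangles are the 10 libraries whose label names another group, bars are mean ± SD. Cdh7, Cdh2 and Pcdh10 are high in E13.5 ONL and lower in outer ONL at E16.5, and Cdh6 is highest in outer ONL at E16.5.

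Along the olfactory nerve from E11.5 to E13.5, 16 members were called (10 higher and 6 lower at E13.5), against 36.6% of all genes (20.2% higher, 16.4% lower), with a median of 0.296 (all genes 0.05). By label 9 were called (4 higher and 5 lower), against 17.5% of all genes (9.31% higher, 8.18% lower). Cdh11 rose from 115, 83.8, 109 and 100.3 to between 317 and 611 (median 473) CPM (log2 fold change 2.21 ± 0.23 (SE), adjusted p = 8.35e-09), Pcdh8 from 1.696, 4.56, 0.456 and 1.39 to between 9.53 and 31.2 (median 14.8) CPM (3.07 ± 0.55, adjusted p = 6.64e-05) and Cdh1 from 0, 3.07, 1.91 and 0.938 to between 8.95 and 28.7 (median 14.1) CPM (3.42 ± 0.75, adjusted p = 5.93e-04). Cdh26 (4.79 ± 0.85, adjusted p = 7.59e-05), Cdh10 (1.63 ± 0.26, adjusted p = 1.08e-05), Cdh13 (1.61 ± 0.46, adjusted p = 0.00706), Pcdh17 (1.02 ± 0.21, adjusted p = 2.54e-04) and Pcdh18 (1.17 ± 0.23, adjusted p = 2.35e-04) rose too, Cdh13 with overlap. Cdh8 had 0 counts at E11.5 and 31 at E13.5, at least 14.7-fold higher with a floor of 3 counts over the group. In the other direction, Cdh2 fell from 219.7, 158, 184 and 218 to between 96.1 and 116 (median 104) CPM (-0.89 ± 0.15, adjusted p = 1.82e-05), Cdh3 from 23.9, 18.3, 39.7 and 22.6 to between 3.57 and 9.79 (median 6.88) CPM (-1.98 ± 0.27, adjusted p = 1.36e-06) and Cdh7 from 4.85, 6.38, 6.51 and 12.2 to between 0.162 and 1.24 (median 0.7596) CPM (-3.49 ± 0.55, adjusted p = 1.15e-05). These 3 did not overlap between the stages, nor did Cdh18, a gene of 2.702, 7.23, 3.28 and 2.17 CPM at E11.5 (-2.45 ± 0.58, adjusted p = 0.00131). The calls of Cdh19 (lost without E13.5_ON 7, or E13.5_ONL 2, 4 or 5 (0.60 to 0.69, adjusted p = 0.0525 to 0.0804)), Cdh20 (lost without E13.5_ONL 5 (-1.41, adjusted p = 0.14)) and Cdh23 (lost without E13.5_ON 3, 4, 5, 6 or 7, or E13.5_ONL 1, 2 or 3 (-1.94 to -1.35, adjusted p = 0.0646 to 0.208), libraries named by label) did not hold in every fit that left out 1 library. By label Cdh8 (-1.81), Cdh13 (-0.54), Pcdh17 (-0.54), Cdh18 (0.87) and Cdh19 (-0.20) turned direction and were not called, while Cdh3, Cdh11, Cdh20, Cdh23 and Pcdh8 kept direction and were not called. Several marker lists differed between these stages. The neuron and axon markers summed to 2731 to 3460 CPM at E11.5 and 780.8 to 1489 CPM at E13.5, with 4 of 5 lower, but Omp, of mature olfactory neurons, was higher (2.92 ± 0.53, adjusted p = 7.44e-05). Mesenchymal markers went from 2167 to 2872 CPM to 3500 to 6356 CPM (5 of 6 higher and 1 lower), and epithelial markers from 104.4 to 165.1 CPM to 216.8 to 436.6 CPM (2 of 5 higher). Endothelial markers were higher for 4 of 4 and mural markers for 3 of 4. Glial markers overlapped in sum (525.8 to 940.6 and 424.1 to 932.1 CPM), with 3 of 5 lower, Sox10 among them (-2.48 ± 0.23, adjusted p = 8.78e-10), and 1 higher. The part of these lists in the calls was not tested.

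From E13.5 to E16.5 the nerve gave 11 calls (6 higher and 5 lower at E16.5), against 28.8% of all genes (15.2% higher, 13.6% lower), with a median of 0.297 (all genes -0.02). Grouping by label gave 7 (3 higher and 4 lower), against 25.1% of all genes (12.4% higher, 12.6% lower). Pcdh9 rose from between 27.5 and 48.2 (median 39.2) to 87.6, 158, 125 and 127 CPM (log2 fold change 1.71 ± 0.24 (SE), adjusted p = 3.16e-06) and Cdh19 from between 5.299 and 12.7 (median 9.12) to 22.3, 18.8, 26.6 and 19.9 CPM (1.29 ± 0.23, adjusted p = 1.24e-04), both without overlap and both called by label. Cdh17 went from 1 count to 147, a ratio of 203 scaled to depth (95% counting interval 35.9 to 8080), with olfactory nerve replicate 2 of E16.5 at 0.0619 CPM. Cdh22 fell from between 0.487 and 1.74 (median 0.979) to 0.0619, 0.0619, 0.2601 and 0.166 CPM (-2.84 ± 0.60, adjusted p = 6.51e-04), Pcdh19 from between 13.2 and 26.8 (median 20.4) to 6.37, 11.3, 7.67 and 13.8 CPM (-1.05 ± 0.29, adjusted p = 0.00616) and Cdh24 from between 2.92 and 7.55 (median 5.702) to 1.61, 3.03, 2.73 and 2.82 CPM (-1.11 ± 0.32, adjusted p = 0.00996), each called by label as well, the last 2 with overlap. Cdh8 (2.11 ± 0.66, adjusted p = 0.018) rose. The other 4 calls lay near the threshold and were lost without any 1 of several libraries: Cdh20 (2.12 ± 0.72, adjusted p = 0.0261) was lost without library 2 or 3 of olfactory nerve at E16.5 (2.07 to 2.098, adjusted p = 0.0521 to 0.0535), Cdh3 (0.77 ± 0.28, adjusted p = 0.036) without E13.5_ON 2, 5 or 6, or library 2 or 4 of olfactory nerve at E16.5 (0.67 to 0.75, adjusted p = 0.0565 to 0.0799), Pcdh8 (-1.49 ± 0.51, adjusted p = 0.0278) without E13.5_ON 3, or library 1, 2 or 3 of olfactory nerve at E16.5 (-1.46 to -1.24, adjusted p = 0.0629 to 0.102) and Pcdh15 (-1.31 ± 0.50, adjusted p = 0.0459) without E13.5_ON 2, 3 or 6, or E13.5_ONL 1, or library 1 or 3 of olfactory nerve at E16.5 (-1.35 to -0.98, adjusted p = 0.0514 to 0.18). The Cdh24 call was lost without library 1 of olfactory nerve at E16.5 (-0.94, adjusted p = 0.0512). Here too E13.5 libraries are named by label. Cdh3, Cdh8, Cdh20, Pcdh8 and Pcdh15 were not called by label, in the same direction. Glial markers went from 424.1 to 932.1 CPM to 1304 to 3184 CPM in the nerve between these stages (4 of 5 higher), and mesenchymal markers from 3500 to 6356 CPM to 7812 to 14540 CPM (5 of 6 higher and 1 lower). Endothelial (4 of 4), mural (3 of 4) and cartilage and bone markers (3 of 5) were higher as well. Their part was not tested.

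Between E13.5 ONL and outer ONL at E16.5, 15 members were called (4 higher and 11 lower at E16.5), against 41.9% of all genes (21.9% higher, 20.0% lower), with a median of -0.63 (all genes 0). Grouping by label gave 15 (7 higher and 8 lower), against 35.2% of all genes (18.2% higher, 17.1% lower). Cdh19 rose from 10.5, 5.47, 10.9, 15.3 and 9.996 to 59.99, 31.5, 58.2 and 29.5 CPM (log2 fold change 2.11 ± 0.26 (SE), adjusted p = 1.35e-07), Cdh6 from 6.64, 4.896, 2.67, 3.32 and 2.76 to 16.6, 8.103, 11.46 and 10.01 CPM (1.56 ± 0.33, adjusted p = 2.97e-04) and Cdh3 from 17.98, 19.7, 24.5, 20.5 and 31.1 to 43.7, 46.2, 36.2 and 41.3 CPM (0.87 ± 0.29, adjusted p = 0.0164). For these 3 every E16.5 library exceeded every E13.5 library, and by label Cdh19 (2.85) and Cdh6 (0.92) were called and Cdh3 (0.90) was not. Cdh24 rose by less (0.88 ± 0.32, adjusted p = 0.0293) and its call was lost without E11.5_ON 3 or 4, or library 1, 3 or 4 of outer ONL at E16.5 (0.72 to 0.88, adjusted p = 0.0511 to 0.0823). Cdh7 fell 43.7-fold (-5.45 ± 0.67, adjusted p = 1.54e-07), Cdh2 fell from 296, 399, 258, 263 and 191 to 89.7, 72.7, 114 and 73.01 CPM (-1.69 ± 0.17, adjusted p = 3.42e-09) and Pcdh7 from 43.2, 24.6, 21.5, 26.8 and 36.9 to 1.304, 7.35, 7.61 and 8.12 CPM (-2.31 ± 0.35, adjusted p = 3.22e-06). Cdh8 (-4.06 ± 0.84, adjusted p = 2.81e-04), Pcdh8 (-3.27 ± 0.63, adjusted p = 1.11e-04), Pcdh15 (-2.57 ± 0.56, adjusted p = 4.37e-04), Cdh4 (-1.32 ± 0.34, adjusted p = 0.00225), Pcdh10 (-1.27 ± 0.28, adjusted p = 4.11e-04), Pcdh19 (-1.19 ± 0.30, adjusted p = 0.00196), Pcdh9 (-0.93 ± 0.26, adjusted p = 0.00486) and Cdh13 (-1.34 ± 0.48, adjusted p = 0.0244) fell as well, the last lost without library 1 or 2 of outer ONL at E16.5 (-1.28 to -1.17, adjusted p = 0.0578 to 0.0814). By label Pcdh10 was called in the opposite direction (1.5 ± 0.42, adjusted p = 0.00617), and Cdh8 (0.64), Cdh4 (0.36), Pcdh9 (0.74) and Cdh13 (0.58) turned direction and were not called. Cdh7 (-2.57 ± 1.18, adjusted p = 0.0885) and Pcdh19 (-0.37 ± 0.31, adjusted p = 0.37) kept direction and were not called by label. The E13.5 ONL was not split into inner and outer parts, and bulb and forebrain markers, at 792.8 to 1099 CPM in it and 10.3 to 150.3 CPM in the outer ONL, were lower along with the falling genes (4 of 6 called). Neuron and axon markers were lower for 4 of 5 and higher for Omp. In the other direction, glial markers went from 4065 to 6270 CPM to 14990 to 26970 CPM (4 of 5 higher), and mesenchymal (4 of 6) and mural markers (4 of 4) were higher. The part of these lists was not tested.

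The difference between ONL and olfactory nerve itself changed between the stages for 9 members, against 12.3% of all genes (5.59% higher, 6.75% lower), by an interaction term in the same fit. By label the count was 7 (4 higher and 3 lower), against 12.5% of all genes (6.83% higher, 5.71% lower). Cdh6 and Cdh24 moved towards outer ONL: the log2 difference of ONL from nerve went from -0.75 at E13.5 to 1.08 at E16.5 for Cdh6 (interaction 1.92 ± 0.45, adjusted p = 0.00409) and from 0.32 to 2.22 for Cdh24 (1.99 ± 0.46, adjusted p = 0.00322). Cdh24 was also called by label (2.73 ± 0.50, adjusted p = 5.43e-04) and Cdh6 was not (1.17 ± 0.48, adjusted p = 0.11). The other 7 moved towards nerve. The difference went from 6.13 to 0.12 for Cdh7 (-5.96 ± 0.89, adjusted p = 3.79e-05), from 3.09 to -3.13 for Cdh8 (-6.16 ± 1.06, adjusted p = 2.27e-04), from 1.88 to -0.83 for Pcdh9 (-2.64 ± 0.36, adjusted p = 1.08e-05) and from 2.88 to 0.97 for Pcdh10 (-1.84 ± 0.37, adjusted p = 0.00102). Cdh2 (-1.32 ± 0.22, adjusted p = 1.21e-04), Cdh13 (-2.34 ± 0.64, adjusted p = 0.0124) and Pcdh7 (-2.0 ± 0.44, adjusted p = 0.00225) completed the list, and of these 7 only Pcdh7 was called in the same direction by label (-1.75 ± 0.45, adjusted p = 0.00923). The E16.5 differences here are from the fit of 15 libraries. Cdh1, Cdh26, Cdh11 and Pcdh18, all lower in ONL than in nerve at both stages, and Cdh3 and Cdh4, higher at both, were not called for a change (0.32 ± 1.23, adjusted p = 0.927 for Cdh1, 2.59 ± 2.25, adjusted p = 0.552 for Cdh26, -0.36 ± 0.30, adjusted p = 0.53 for Cdh11, -0.50 ± 0.33, adjusted p = 0.393 for Pcdh18, 0.10 ± 0.41, adjusted p = 0.935 for Cdh3 and -0.78 ± 0.46, adjusted p = 0.323 for Cdh4).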

How the data were processed

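Per the labels and the study's methods, the authors aligned the paired-end reads to mm10 with TopHat2 2.1.0 and counted reads per gene with HTSeq, and the deposited values are raw counts of 31 libraries. The strand setting of the counting is not stated. SMART-seq amplification keeps no molecular identifiers, so counting intervals and floors (3 counts) cover counting error only. The 1 row without a gene name held 0 counts (0% of the total) and was left out. The study's table of group means served only to place the libraries (1999 of its genes at hand).

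Genes were filtered with filterByExpr, scaled by TMM and tested with edgeR 4.0.16 (glmQLFit, glmQLFTest) under R 4.3.3, with Benjamini-Hochberg adjustment over all genes tested. The SE of a log2 fold change is its size divided by the square root of F. Figures and joins used Python 3.11.15, NumPy 2.4.6, pandas 2.3.3 and SciPy 1.17.1. Exon lengths are from GENCODE M21 (GRCm38). The fits were tested on simulated counts with known changes. Members and lists were chosen with earlier results of these data known. A few marker genes of the cell type lists are not reported here, and sums and counts over those lists leave them out. All 32 members are accounted for. Members called in a comparison are named with values, by absolute log2 fold change up to 12, and any further ones were added after their values were seen.

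Alternatives were DESeq2 1.42.0, total count and upper quartile scaling, no filter, a filter of 1 CPM in at least 4 libraries, the groups alone, fits of all 31 libraries, grouping by label, a replicate block and leaving out each library. Same-numbered olfactory nerve and outer ONL libraries of E16.5 deviated together, though the ranges overlap (correlations over 10538 genes 0.257 to 0.566, other pairs -0.408 to 0.366). These numbers were taken as pairs in the replicate block alternative only. The values of E16.5 given above are from a fit without a block. The labels do not state the pairing.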

Additional observations from a re-analysis of the deposited data

Results flagged for a closer look

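Among 157 groups of 4 to 7 libraries in which a member averaged at least 1 CPM, 8 (5.1%) held a library far from the others by Dixon's test, where chance gives about 1 in 20. In E13.5 ONL, Cdh7 was 77.8 CPM (others 35.9 to 43.1) and Pcdh9 was 286.9 CPM (others 89.8 to 127.7) in the library labelled E11.5_ON1, and Cdh4 was 50.9 CPM (others 20.03 to 22.7) in that labelled E11.5_ON2. Cdh4 was 12.4 CPM (others 3.92 to 7.33) in the E13.5 olfactory nerve library labelled E13.5_ON2, and Cdh9 was 6.47 CPM (others 0 to 1.03) in the E11.5 olfactory nerve library labelled E13.5_ONL3. At E16.5, Pcdh7 was low in outer ONL replicate 1 (1.30 CPM, others 7.35 to 8.12), Pcdh19 was high in inner ONL replicate 2 (43.8 CPM, others 18.4 to 22.2) and Pcdh20 was low in inner ONL replicate 3 (2.04 CPM, others 2.95 to 3.03).

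The log2 difference of ONL from olfactory nerve changed from E13.5 to E16.5 for 9 members, against 12.3% of all genes, by the interaction term of the edgeR fit of 31 libraries. Early groups are those of the table of means. Of these 9 members, only Cdh24 and Pcdh7 were called in the same direction by label. Cdh7 (0.054) and Pcdh10 (1.67) turned direction by label, and the others kept direction and were not called. The change was positive for Cdh6 (1.92, adjusted p = 0.00409) and Cdh24 (1.99, adjusted p = 0.00322). It was negative for Cdh2 (-1.32, adjusted p = 0.000122), Cdh7 (-5.96, adjusted p = 3.79e-05), Cdh8 (-6.16, adjusted p = 0.000227), Cdh13 (-2.34, adjusted p = 0.0124), Pcdh7 (-2.0, adjusted p = 0.00225), Pcdh9 (-2.64, adjusted p = 1.08e-05) and Pcdh10 (-1.84, adjusted p = 0.00102). E13.5 ONL was not split into inner and outer pieces, so stage and the part of the ONL cut cannot be told apart.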

How the results depend on the processing

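Of 133 calls of members over the 9 comparisons, 61 kept direction and threshold under every alternative run, 60 lost the threshold under at least 1 and 18 reversed under at least 1. Grouping the early libraries by label gave 9 calls for E13.5 ONL against nerve, 9 for nerve at E13.5 against E11.5 and 7 for nerve at E16.5 against E13.5. Fitting all 31 libraries by label gave 15 calls for outer ONL against olfactory nerve, in place of 21. Lost were Cdh4, Cdh8, Cdh9, Cdh10, Pcdh9 and Pcdh10. That fit gave 5 calls for inner against outer ONL, 9 for olfactory against trigeminal nerve and 12 for outer ONL against trigeminal nerve. The share of all genes called in that fit is not given beside these counts. Leaving out 1 library at a time gave 18 to 21 calls for outer ONL against olfactory nerve, 8 to 13 for inner against outer ONL, 16 to 20 for outer ONL against trigeminal nerve, 12 to 13 for olfactory against trigeminal nerve, 17 to 18 for E13.5 ONL against nerve, 14 to 18 for nerve at E13.5 against E11.5, 8 to 12 for nerve at E16.5 against E13.5, 13 to 16 for outer ONL against E13.5 ONL and 9 to 10 for the change between stages. The replicate block changed no member call of outer ONL against olfactory nerve (21). The other E16.5 groups may share embryos, but same-numbered libraries did not deviate together in every pair and the sources used here tie no number to an embryo. There the block gave 12 calls for inner against outer ONL, 12 for outer ONL against trigeminal nerve and 12 for olfactory against trigeminal nerve. Early groups as in the table of means share no replicate numbers to pair. For each of these changes the cause was not tested.

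All reversals came from grouping by label, given as the log2 value by label and then, where a second value follows, without the 2 libraries labelled E13.5_ON1 and E13.5_ONL1, an alternative chosen after seeing the data. For E13.5 ONL against nerve they were Cdh12 (-1.13, -0.55), Cdh8 (-2.81, -5.33), Pcdh17 (-1.01, -1.06), Cdh4 (-0.13), Pcdh10 (-0.63) and Pcdh9 (-0.050). For nerve at E13.5 against E11.5 they were Cdh13 (-0.54, -0.62), Cdh18 (0.87, 1.00), Cdh19 (-0.20, -0.20), Cdh8 (-1.81, -3.33) and Pcdh17 (-0.54, -0.65). For outer ONL against E13.5 ONL they were Cdh13 (0.58, 0.95), Cdh4 (0.36, 0.21), Cdh8 (0.64, 4.72), Pcdh10 (1.5, 1.39) and Pcdh9 (0.74, 0.70), and for the change between stages Cdh7 (0.054) and Pcdh10 (1.67). Sparse members such as Cdh8, Cdh18 and Cdh26 are limited by depth, with a floor of 3 counts in libraries of 3512627 to 36705535.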
